A study of Mus musculus with 16 samples.

Results

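The interferon-induced GTPases examined here are 10 mouse genes of 2 related families: the guanylate-binding proteins Gbp2, Gbp3, Gbp4, Gbp5 and Gbp6, and the immunity-related GTPases Iigp1, Igtp, Irgm1, Irgm2 and Tgtp1. They were taken by symbol, as the features of the array whose platform annotation names one of these genes. That gave 13 of 44290 features and 10 of the 25892 genes and unnamed features tested. Of the 13 features, 12 had a value in every group and entered the tests. The remaining feature, another one for Irgm1, had values on 4 Il10-/- arrays and 3 C57BL/6J arrays.

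Both families are transcribed in cells that meet interferons, above all interferon gamma, and the transcription factor IRF1 takes part in that response. Their proteins bind GTP and assemble on the vacuoles in which bacteria and parasites such as Toxoplasma and Chlamydia live, where they break the vacuole membrane and expose the microbe to autophagy proteins and inflammasomes. Among the immunity-related GTPases of the mouse, Iigp1 and Tgtp1 are effectors that load onto the vacuole, and Irgm1, Irgm2 and Igtp are regulators that sit on the cell's own membranes and keep the effectors inactive there.

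The study set male Il10-/- mice (strain B6.129P2-Il10tm1Cgn/J, which lack the anti-inflammatory cytokine interleukin 10) against male C57BL/6J mice, each on 4 diets named CO (AIN-76A), OA (oleic acid), EPA (eicosapentaenoic acid) and AA (arachidonic acid). The fatty acids of the other 3 diets made up 3.7% of a feed with 1% corn oil, and all 8 groups had received Enterococcus faecalis, E. faecium and a complex gut flora by mouth, so no group without added bacteria was measured. The diets lasted 6 weeks, and the 6 mice of each group were killed once older than 77 days. On each of the 2 arrays per group, colon RNA pooled in equal parts from 2 to 3 mice was read in one channel and a common RNA mix of Swiss mouse tissues and fetuses in the other. The labels do not say whether the pools of a group held different animals, so the spread between arrays may be partly technical. For Il10-/- OA replicate 1 the title gives OA and the source name EPA, and the title was followed.

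Levels below are log2 ratios of colon RNA to that mix, one per array, so a level says nothing about how one gene compares with another. Differences between groups are log2 differences with the standard error (SE) of the limma fit. A gene is said to be called where its p-value, adjusted by Benjamini-Hochberg over all 25892 tests of a comparison, lay under 0.05. On each array 326 to 985 features held exactly the same value, and no other value was held by more than 4. A feature at that value is called tied, since it may not measure its own gene. Of 9 epithelium markers tested, 8 were tied on all 16 arrays, so the colon label could not be checked with them. The Il10 feature itself lay higher on Il10-/- arrays, at 0.38 to 0.77, than on C57BL/6J arrays, at -0.32 to -0.05. Its place relative to the disrupted part of the gene is not known, so it does not check the labels.

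All 10 GTPases rose in Il10-/- colon averaged over the diets, where 9.14% of all genes were called higher, 8.12% lower and 17.3% in either direction. With the features of a gene averaged, the differences ran from 0.55 for Gbp5 to 3.02 for Iigp1. Their median was 1.80, beside a median of -0.01 over all genes. For each of the 10 genes every one of the 8 Il10-/- arrays lay above every one of the 8 C57BL/6J arrays, a separation seen in 2.83% of all genes. The RNA came from whole tissue, in which more cells of a type and more RNA per cell cannot be told apart. All 8 macrophage markers tested were also called higher, of which Lyz2 (0.31 ± 0.06) had a tied feature on 8 Il10-/- and 6 C57BL/6J arrays. The other 7 had a mean level of 0.76 to 1.18 on Il10-/- arrays and -0.13 to 0.30 on C57BL/6J arrays, and their part in the GTPase difference was not tested.

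**Figure D1:**
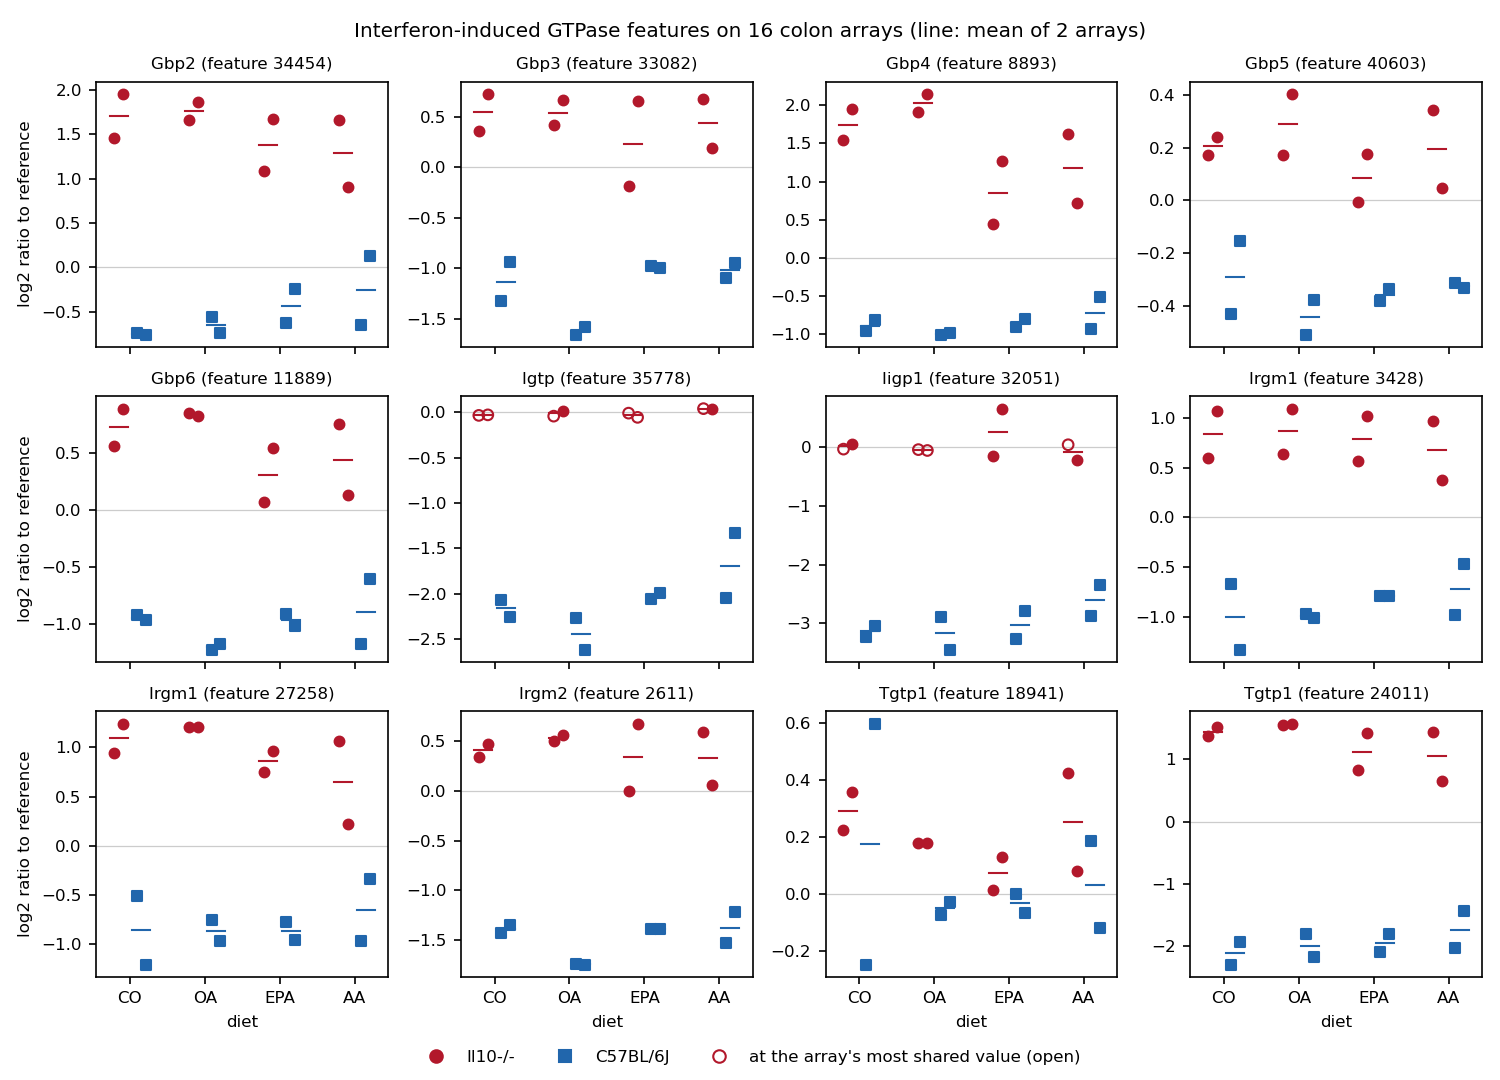
Level of the 12 tested features (log2 ratio to the common reference, vertical axis, own scale per panel) on each array by diet (horizontal axis), with Il10-/- arrays as red circles left of C57BL/6J arrays as blue squares. Open symbols are tied values and short lines are means of 2 arrays. The genotypes separate in every panel except that of Tgtp1 feature 18941.

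Interferon acts on genes through short promoter sequences, which are shown here because the 10 genes moved together. RefSeq promoters (assembly GRCm38.p6, from 250 bases before to 50 after a start) were found for 7 of the 10 genes. Gbp4, Gbp6 and Iigp1 had none in the table. Each was searched on both strands for 2 cores: GAAANNGAAA, the core of the interferon-stimulated response element (ISRE) bound by IRF proteins, and TTCNNNGAA, the core of the gamma-activated site (GAS), named for its role in the response to interferon gamma. The windows of 60 bases below, in the direction of transcription, hold the ISRE core of each gene in capitals, with any GAS core inside the window in capitals as well. TTTCNNTTTC is the same ISRE core on the other strand.
Tgtp1: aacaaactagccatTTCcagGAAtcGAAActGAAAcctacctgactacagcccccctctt
Igtp: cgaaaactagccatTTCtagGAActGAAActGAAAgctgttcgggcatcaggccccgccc
Irgm2: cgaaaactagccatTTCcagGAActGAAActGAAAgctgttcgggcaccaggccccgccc
Irgm1: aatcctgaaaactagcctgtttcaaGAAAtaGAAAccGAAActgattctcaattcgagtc
Gbp2: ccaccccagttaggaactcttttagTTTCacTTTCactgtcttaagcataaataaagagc
Gbp3: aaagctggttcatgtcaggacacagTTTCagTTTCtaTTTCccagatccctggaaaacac
Gbp5: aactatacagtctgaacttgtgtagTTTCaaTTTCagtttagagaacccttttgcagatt

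All 7 genes held an ISRE core, which 3.44% of 32851 promoters in the table hold (3.99% of genes). In Irgm1 and in Gbp3 a pair of cores overlapped, and a further annotated start of Gbp3 had no core of either kind in its window. The GAS core, present in 8.3% of all promoters, was found in Tgtp1, Igtp, Irgm2 and Gbp5. In Tgtp1, Igtp and Irgm2 it lay upstream of the ISRE core with 2 bases between them, and 22 of all promoters (0.067%) hold both within 10 bases of each other. Igtp and Irgm2 are neighbours on chromosome 11, and their windows were identical at 58 of 60 positions (96.7%). The window of Tgtp1, also on chromosome 11, matched that of Irgm2 at 40 positions. In Gbp5 the pair of GAS cores lay at -245 to -237 and at -52 to -44, counted from the start base as 0, and so at a distance from its ISRE core at -165 to -156. A match is a run of letters and not a shown binding site.

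The windows lie at chr11:48992289-48992348 for Tgtp1 and chr11:48871416-48871475 for Irgm1, both on the minus strand, and at chr11:58199497-58199556 for Igtp, chr11:58214888-58214947 for Irgm2, chr3:142620579-142620638 for Gbp2, chr3:142559974-142560033 for Gbp3 and chr3:142496744-142496803 for Gbp5, all on the plus strand. Whole promoters are given for a gene with both cores and for one with an ISRE core alone, Irgm2 (chr11:58214727-58215026, plus strand) and Gbp2 (chr3:142620413-142620712, plus strand), with the cores in capitals.
Irgm2: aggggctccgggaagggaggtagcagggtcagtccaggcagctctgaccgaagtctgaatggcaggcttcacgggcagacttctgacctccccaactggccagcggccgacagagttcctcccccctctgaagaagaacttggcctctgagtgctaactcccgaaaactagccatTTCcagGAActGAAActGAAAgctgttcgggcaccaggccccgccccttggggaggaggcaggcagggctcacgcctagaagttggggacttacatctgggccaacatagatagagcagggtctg
Gbp2: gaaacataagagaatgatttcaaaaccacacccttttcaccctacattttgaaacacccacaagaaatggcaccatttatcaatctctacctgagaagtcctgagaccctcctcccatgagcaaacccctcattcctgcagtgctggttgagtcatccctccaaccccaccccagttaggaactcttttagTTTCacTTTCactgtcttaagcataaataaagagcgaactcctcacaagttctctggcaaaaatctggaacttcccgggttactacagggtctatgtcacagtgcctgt

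**Figure D2:**
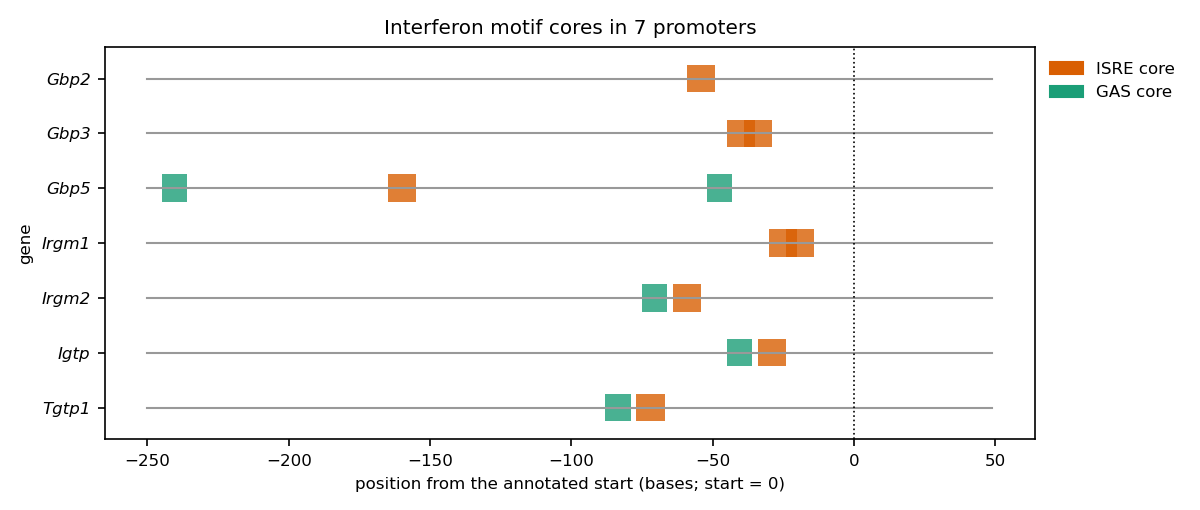
Position of ISRE cores (orange) and GAS cores (green) in the promoters of 7 genes, in bases from the annotated start (horizontal axis, start at 0), one line per gene. Every gene has an ISRE core upstream of the start, and in Irgm2, Igtp and Tgtp1 a GAS core lies directly before it.

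Of genes outside the 10 with a promoter in the table, 17.8% of 557 with an ISRE core were called higher in Il10-/- colon, against 9.43% of 13897 without one. The median differences were 0.01 with the core and -0.02 without it. Among 11 other genes tested that hold both cores within 10 bases, 3 were called higher: the immunity-related GTPase Gm12250 (1.22 ± 0.08, SE), the virus-tethering membrane protein Bst2 (0.80 ± 0.06) and the transcription factor Etv6 (0.20 ± 0.06). Their limma adjusted p-values were 8.77e-07, 2.08e-06 and 0.0303, and the call of Etv6 was lost under 11 of 26 alternatives, with an adjusted p of up to 0.0821 when a single array was left out and 0.295 on 1 of its features alone. These shares describe the array's genes and were not tested.

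Among the guanylate-binding proteins, Gbp4 had the largest difference. It is encoded on chromosome 5 with Gbp6. On Il10-/- arrays Gbp4 had levels of 1.54 and 1.95 with CO, 1.92 and 2.16 with OA, 0.45 and 1.26 with EPA, and 1.63 and 0.72 with AA. On C57BL/6J arrays it had -0.97 and -0.82 with CO, -1.01 and -0.996 with OA, -0.91 and -0.81 with EPA, and -0.94 and -0.52 with AA. The Il10-/- levels spread widely, with the lowest on EPA replicate 1 and AA replicate 2, while the C57BL/6J levels stayed close together except on AA replicate 2. The difference averaged over diets was 2.32 ± 0.15 (SE), a 5.01-fold higher level if the deposited logs have base 2, as assumed here (limma adjusted p = 6.95e-07, higher on 8 of 8 Il10-/- arrays).

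Gbp2, which is recruited to Toxoplasma vacuoles and restricts the parasite in mice, had levels from 0.91 to 1.96 with a median of 1.66 on Il10-/- arrays, against -0.76 to 0.13 with a median of -0.64 on C57BL/6J arrays. The difference was 2.06 ± 0.15 (adjusted p = 1.84e-06). The nearest approach of the genotypes was on the AA diet, where the C57BL/6J array replicate 2 reached 0.13 and the Il10-/- array replicate 2 stood at 0.91. Gbp3, encoded beside Gbp2 on chromosome 3, had 0.54 as its median on Il10-/- arrays (range -0.19 to 0.73), against -1.04 on C57BL/6J arrays (range -1.66 to -0.94). Its difference was 1.63 ± 0.12 (adjusted p = 2.46e-06). RefSeq lists Gbp4 among the older synonyms of Gbp3, so these names have been exchanged in the past.

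Gbp6 and Gbp5 marked the lower end of the family. Gbp6 had levels from 0.07 to 0.89 (median 0.66) on Il10-/- arrays, against -1.23 to -0.60 (median -0.99) on C57BL/6J arrays, a difference of 1.58 ± 0.11 (adjusted p = 1.57e-06). Gbp5, which promotes assembly of the NLRP3 inflammasome, had -0.01 to 0.40 (median 0.17) on Il10-/- arrays, against -0.51 to -0.15 (median -0.36) on C57BL/6J arrays. Its difference of 0.55 ± 0.06 was the smallest of the 10, a 1.46-fold higher level (adjusted p = 8.26e-05), and the lowest Il10-/- array lay only 0.15 above the highest C57BL/6J array.

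With features averaged by gene, Iigp1, the effector also called Irga6, had the largest difference of the 10, although Tgtp1 feature 24011 alone gave 3.26. Iigp1 rests in part on tied values. On Il10-/- arrays its levels were -0.03 and 0.06 with CO, -0.04 and -0.06 with OA, -0.15 and 0.66 with EPA, and 0.04 and -0.22 with AA. Of these, CO replicate 1, both OA arrays and AA replicate 1 were tied. On C57BL/6J arrays none was tied, and the levels were -3.23 and -3.04 with CO, -2.89 and -3.45 with OA, -3.27 and -2.80 with EPA, and -2.87 and -2.35 with AA. The genotypes lay 2.13 apart at their nearest. The difference was 3.02 ± 0.13, or 8.10-fold (adjusted p = 1.01e-07). On EPA, where no array was tied for Iigp1, it was 3.28 ± 0.26 (adjusted p = 0.000176). The SE and p-value on EPA draw on the spread within all 8 groups, including those with tied values.

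Igtp, also called Irgm3, was tied on 6 of 8 Il10-/- arrays: both on CO, replicate 1 on OA, both on EPA and replicate 1 on AA. All 8 lay within 0.1 of the tied value of their array, between -0.05 and 0.04. On C57BL/6J arrays, none of them tied, Igtp had -2.07 and -2.25 with CO, -2.27 and -2.62 with OA, -2.06 and -1.99 with EPA, and -2.05 and -1.33 with AA. The levels of Igtp in Il10-/- colon can therefore not be ordered by diet. The difference of 2.07 ± 0.09 (adjusted p = 1.01e-07) holds these tied values, and its SE draws on their spread. With tied values taken as missing, no difference averaged over diets could be given for Igtp or Iigp1, and all 8 genes that remained were called.

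The regulators Irgm1 and Irgm2 were never tied. Irgm1, which in mice acts in autophagy and in the survival of macrophages and lymphocytes, had 0.30 to 1.16 (median 0.96) on Il10-/- arrays, against -1.27 to -0.40 (median -0.87) on C57BL/6J arrays, as the average of its features. Its 2 tested features gave 1.67 ± 0.13 and 1.76 ± 0.14 singly, and the average 1.71 ± 0.14 (adjusted p = 3.68e-06). The third feature, left out of the tests, overlapped between the genotypes, with -0.09 to 0.51 on 4 Il10-/- arrays and -0.33 to 0.19 on 3 C57BL/6J arrays. Irgm2 had 0.00 to 0.68 (median 0.49) on Il10-/- arrays, against -1.75 to -1.22 (median -1.41) on C57BL/6J arrays, a difference of 1.88 ± 0.10 (adjusted p = 2.75e-07).

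Tgtp1, the effector also called Irgb6, was measured by 2 features that disagreed although the platform gives them the same transcript. Feature 24011 had levels of 0.65 to 1.58 (median 1.44) on Il10-/- arrays, against -2.31 to -1.45 (median -1.99) on C57BL/6J arrays. Its difference was 3.26 ± 0.14 (adjusted p = 3.47e-08 over features tested singly, of which 15.9% were called). Feature 18941 had 0.02 to 0.43 (median 0.18) on Il10-/- arrays, against -0.25 to 0.60 (median -0.05) on C57BL/6J arrays, with a difference of 0.17 ± 0.11 (adjusted p = 0.345). The genotypes overlapped at that feature, whose highest level was on C57BL/6J CO replicate 2. The gene's value of 1.71 ± 0.10 (adjusted p = 4.8e-07) is the average of both features and describes neither. RefSeq gives Tgtp2, a near-identical gene, as a synonym of Tgtp1, so a feature may read both.

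On each diet taken alone all 10 genes had a difference above 0, and 9 or 10 of them were called higher. All 10 were called higher on CO (background 5.09% called higher, 8.57% called) and on OA (2.92% higher, 5.06% called). On EPA (1.19% higher, 1.63% called) and on AA (0.896% higher, 1.32% called) 9 were called higher, and the exception was Gbp5 both times. Its difference was 0.44 ± 0.13 on EPA (adjusted p = 0.129) and 0.52 ± 0.13 on AA (adjusted p = 0.0812). The calls of Igtp on CO and on EPA and of Iigp1 on OA rest on tied values, since both Il10-/- arrays were tied there. With these values included, the median difference over the 10 genes was 1.87 with CO, 2.22 with OA, 1.68 with EPA and 1.53 with AA.

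The genotype difference of Gbp4 had the widest range over the diets, at 2.64 on CO and 3.04 on OA, but 1.71 on EPA and 1.90 on AA (SE 0.29 each), though the interaction test called none of the 10 genes (lowest adjusted p = 0.672). Iigp1 gave 2.52 on AA and 3.12 to 3.28 on the other diets (SE 0.26 each), with both Il10-/- arrays tied on OA. The counts on EPA and AA depended on single arrays of these groups. Leaving such an array out leaves 1 array in its group, and the number of all genes called varied between these fits too. The counts therefore do not show a loss particular to the GTPases. On EPA the count was 4 without C57BL/6J replicate 1, 5 without C57BL/6J replicate 2 and 4 without Il10-/- replicate 2. On AA it was 3 without Il10-/- replicate 1 and 4 without C57BL/6J replicate 1, and 5 where only the AA groups were fitted.

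**Figure D3:**
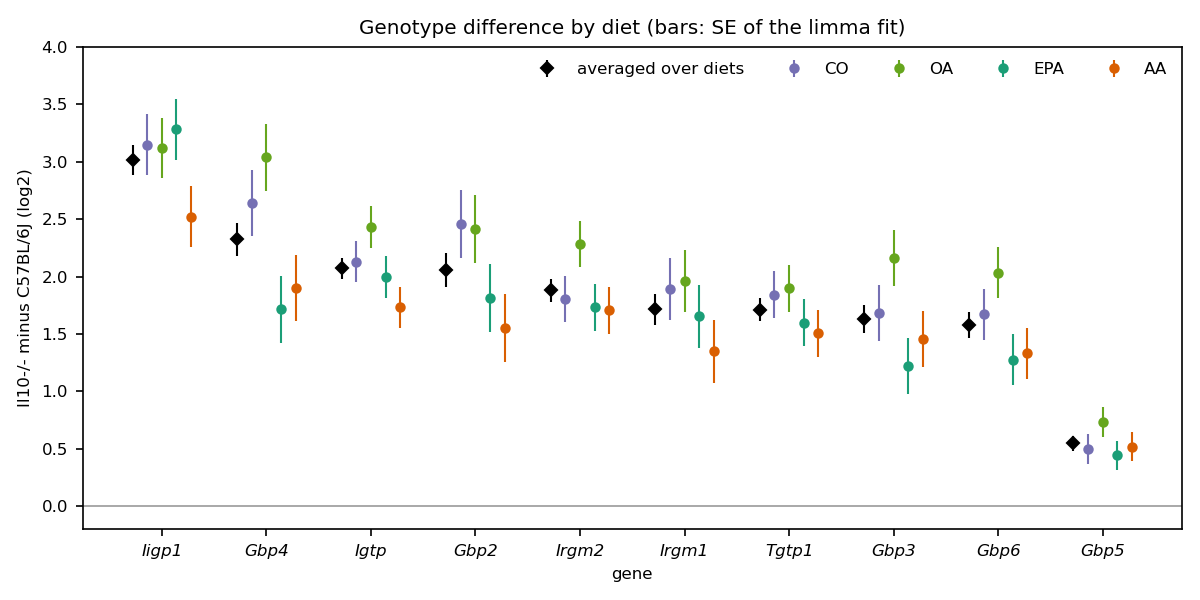
Difference between Il10-/- and C57BL/6J arrays (log2, vertical axis) for each gene (horizontal axis), averaged over diets (black diamonds) and on each diet (coloured circles), with the SE of the limma fit as bars. All 50 points lie above 0, and Gbp5 has the smallest values. For Igtp on CO and on EPA and for Iigp1 on OA, both Il10-/- values were tied.

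Whether the diets changed the GTPases was asked within each genotype, and no member was called in any diet comparison or in the interaction of genotype and diet. In Il10-/- colon the mean of the EPA and AA diets lay below the mean of OA and CO for 8 of the 10 genes (0.0811% of all genes were called). In C57BL/6J colon it lay above for all 10 (0.0193% called). The largest difference in Il10-/- colon was that of Gbp4, at -0.88 ± 0.21 (adjusted p = 0.166, 95% confidence interval -1.32 to -0.43 before adjustment), followed by Gbp6 at -0.41 ± 0.16 (adjusted p = 0.459) and Gbp2 at -0.40 ± 0.21 (adjusted p = 0.609). Igtp and Iigp1, the genes with tied values, were the 2 above 0. In C57BL/6J colon Igtp had 0.44 ± 0.13 (adjusted p = 0.398) and Gbp3 0.37 ± 0.17 (adjusted p = 0.657).

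The difference between the genotypes in this diet contrast was below 0 for all 10 genes, with a median of -0.42, and was called for none of them and for none of all 25892 genes. At an unadjusted p under 0.05 it included 5 members and 2200 of all genes. Gbp4 gave -1.03 ± 0.29 (adjusted p = 0.295, 95% confidence interval -1.67 to -0.40 before adjustment). The interaction test over all diets gave an unadjusted p under 0.05 for 1 member and 1728 of all genes, with none called. An adjusted p above 0.05 with 2 arrays per group does not show that the diets act alike.

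**Figure D4:**
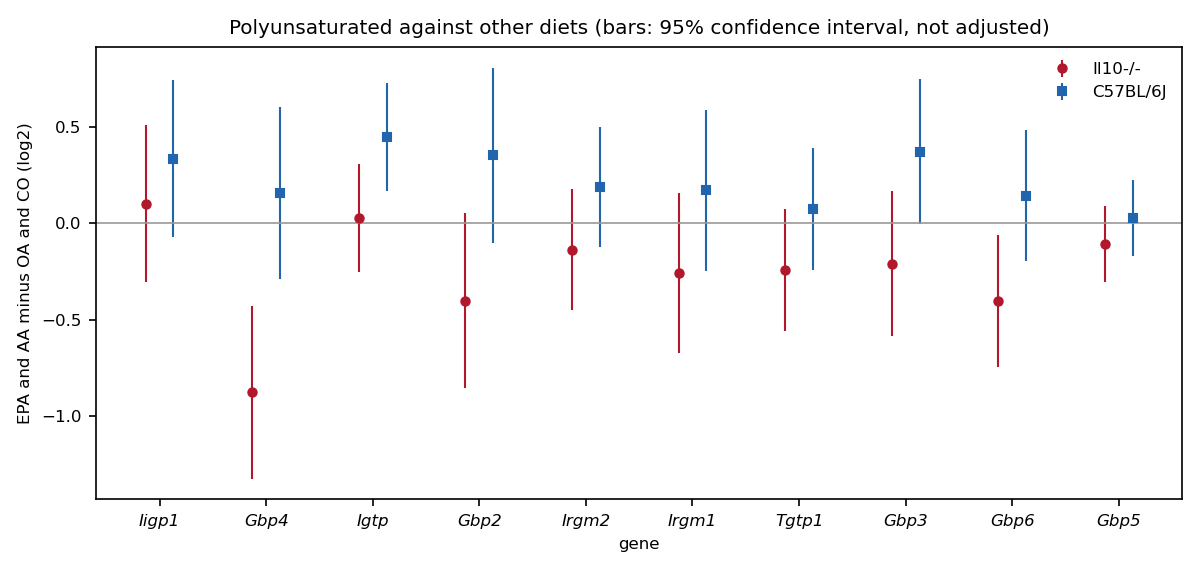
Mean of the EPA and AA diets minus mean of the OA and CO diets (log2, vertical axis) for each gene (horizontal axis) in Il10-/- (red circles) and C57BL/6J colon (blue squares), with 95% confidence intervals that are not adjusted for multiple tests. Gbp4 in Il10-/- colon lies lowest at -0.88, and none of the 20 values was called.

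EPA against OA in Il10-/- colon gave values below 0 for 9 of 10 genes (0% of all genes called). Gbp4 was lowest at -1.18 ± 0.29 (unadjusted p = 0.00154 from limma, adjusted p = 0.659), and Gbp6 had -0.53 ± 0.22 (adjusted p = 0.999). At an unadjusted p under 0.05 there were 2 members and 1106 of all genes. AA against OA, which shares the OA arrays, gave values below 0 for 9 genes too (0.00386% called), with Gbp4 at -0.86 ± 0.29 (adjusted p = 0.645). EPA against AA (0% called) and OA against CO (0% called) had no member at an unadjusted p under 0.05, against 879 and 389 of all genes. In C57BL/6J colon EPA against OA and AA against OA (0% called in each) were above 0 for all 10 genes, with the largest values for Gbp3 on EPA (0.63 ± 0.24, adjusted p = 0.807) and for Igtp on AA (0.75 ± 0.18, adjusted p = 0.817). At an unadjusted p under 0.05 each had 2 members, with 1539 and 866 of all genes.

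The order of the diets differed between genotypes but was mostly within the spread of the arrays. Among the 8 genes never tied, OA had the highest mean in Il10-/- colon for 7, and EPA had the lowest for 5 and AA for 3. In C57BL/6J colon, where none of the 10 genes was tied, AA had the highest mean for 8 and OA the lowest for 8. Of neighbouring diets in these orders, 1 of 24 pairs of those 8 genes in Il10-/- colon, OA over CO for Irgm2, had arrays that did not overlap (21.3% over all genes with a value on every array). In C57BL/6J colon 7 of 30 pairs of the 10 genes did not overlap (17.4% over all genes), a share near that background.

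A few arrays stood apart from the others of their genotype. Averaged over the 8 genes never tied, Il10-/- arrays had 0.31 on EPA replicate 1 and 0.34 on AA replicate 2, and 0.75 to 1.06 on the other 6. C57BL/6J arrays had -0.58 on AA replicate 2 and -1.09 to -0.83 on the other 7. EPA replicate 1 was the lowest Il10-/- array for 5 genes and AA replicate 2 for 4, while C57BL/6J AA replicate 2 was the highest C57BL/6J array for 7 genes. Other interferon-induced GTPases, listed below, had means of 0.35 on Il10-/- EPA replicate 1 (rank 8 of 8) and 0.40 on Il10-/- AA replicate 2 (rank 7). On C57BL/6J AA replicate 2 they had -0.25 (rank 2). The macrophage markers never tied had a mean of 0.87 on Il10-/- EPA replicate 1 (rank 6 of 8) and 0.78 on Il10-/- AA replicate 2 (rank 7). On C57BL/6J AA replicate 2 their mean was 0.30 (rank 1). Means of neutrophil, T cell, cytotoxic cell, B cell and plasma cell markers ranked 1, 4, 8, 6 and 3 in that order on Il10-/- EPA replicate 1. Their ranks were 8, 1, 2, 5 and 5 on Il10-/- AA replicate 2, and 7, 1, 2, 6 and 1 on C57BL/6J AA replicate 2. The part of these cells in the levels of the 3 arrays was not tested. In a fit without AA replicate 2 of both genotypes, which was added once the levels were known, all 10 genes remained called higher averaged over diets.

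Most relatives outside the 10 rose too. Of 10 other interferon-induced GTPases tested, 9 were called higher in Il10-/- colon (9.14% over all genes) and none lower, with a median difference of 0.91. They included Gbp11 (1.88 ± 0.10, adjusted p = 2.49e-07), Ifi47 (1.65 ± 0.15, adjusted p = 1.04e-05), Gbp8 (1.24 ± 0.09, adjusted p = 2.74e-06) and Gm12250 (1.22 ± 0.08, adjusted p = 8.77e-07). The exception was Mx1, an antiviral GTPase induced by type I interferon and named here after its value was seen, at 0.12 ± 0.05 (adjusted p = 0.119). Its relative Mx2, also named after the values were seen, was among the 9 called higher. Gbp1, Gbp10 and Tgtp2 were not analysed here. Of 13 dynamin, atlastin and Ehd GTPases, large GTPases of membrane traffic from other families, none was called higher and 2 were called lower. The 2 were Dnm1 (-0.46 ± 0.11, adjusted p = 0.014) and Dnm3 (-0.15 ± 0.05, adjusted p = 0.0416), beside 8.12% of all genes called lower.

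Of the ligands and receptors upstream, 2 of 14 were called higher, beside 9.14% of all genes. Ifng, the gene of interferon gamma, had 0.89 to 1.49 on Il10-/- arrays and -0.14 to 0.14 on C57BL/6J arrays, a difference of 1.28 ± 0.08 (adjusted p = 7.75e-07). Ifnar2, a chain of the type I interferon receptor, had a difference of 0.43 ± 0.05 (adjusted p = 5.27e-05). The interferon gamma receptor gene Ifngr1 was tied on all 16 arrays and so was not measured here. Of 13 genes for signalling and transcription factors, 7 were called higher and 1 lower. Batf2 (1.29 ± 0.13, adjusted p = 2.36e-05), a partner of Irf1 in macrophages, and Ciita (1.24 ± 0.11, adjusted p = 1.25e-05), the activator of MHC class II genes, led them, before Irf8 (0.76 ± 0.09, adjusted p = 9.79e-05) and Stat2 (0.64 ± 0.10, adjusted p = 0.000574). The gene called lower, named after its value was seen, was Irf7 (-0.57 ± 0.16, adjusted p = 0.0252), a factor of the type I response. That call was lost under 8 of 25 alternatives, with an adjusted p of up to 0.0628 when a single array was left out.

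Irf1 had a difference of 0.30 ± 0.06 (adjusted p = 0.00358), but some of its features were tied on 8 Il10-/- and 5 C57BL/6J arrays, and singly they gave -0.05 to 0.72. Inhibitors of the pathway were called higher in 5 of 7 cases, beside 9.14% of all genes. Among them were the JAK inhibitors Socs1 (1.95 ± 0.14, adjusted p = 2.31e-06) and Socs3 (1.80 ± 0.09, adjusted p = 2.48e-07), the protease of ISG15 conjugates Usp18 (0.89 ± 0.08, adjusted p = 7.58e-06) and the phosphatase Ptpn1 (0.59 ± 0.06, adjusted p = 3.39e-05).

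Of 15 genes of the type I antiviral response, 4 were called higher and 1 lower (9.14% and 8.12% over all genes), with a median of 0.14. Ifit2 had 1.19 ± 0.09 (adjusted p = 2.57e-06) as the average of features that gave 0.61 and 1.77 singly, both called. The genes Ifi35 (0.30), Xaf1 (0.30) and Oasl1 (0.27) had smaller differences. Rsad2, the antiviral viperin gene, was the one called lower, at -0.25 ± 0.06 (adjusted p = 0.00895), a call lost under 1 of 27 alternatives. Of 8 inflammasome genes 3 were called higher (9.14% over all genes): the nucleic acid sensor Zbp1 (2.14 ± 0.09, adjusted p = 8.08e-08), the protease Casp4 (0.90 ± 0.12, adjusted p = 0.000206) and the pore former Gsdmd (0.30 ± 0.09, adjusted p = 0.0325). Autophagy conjugation genes act with the GTPases at vacuoles. Of 14 tested, 1 was called higher and 2 lower (9.14% and 8.12% over all genes). These were Atg5 (0.18 ± 0.05, adjusted p = 0.0354), and Map1lc3a (-0.56 ± 0.15, adjusted p = 0.0186) and Atg7 (-0.24 ± 0.08, adjusted p = 0.0495). The calls of Atg5, Atg7, Gsdmd and Oasl1, and that of Dnm3 above, were lost when any of several single arrays was left out, with adjusted p-values up to 0.0879, 0.121, 0.0768, 0.0604 and 0.107 in that order. That of Map1lc3a was lost without C57BL/6J OA replicate 1 (adjusted p = 0.0505).

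**Figure D5:**
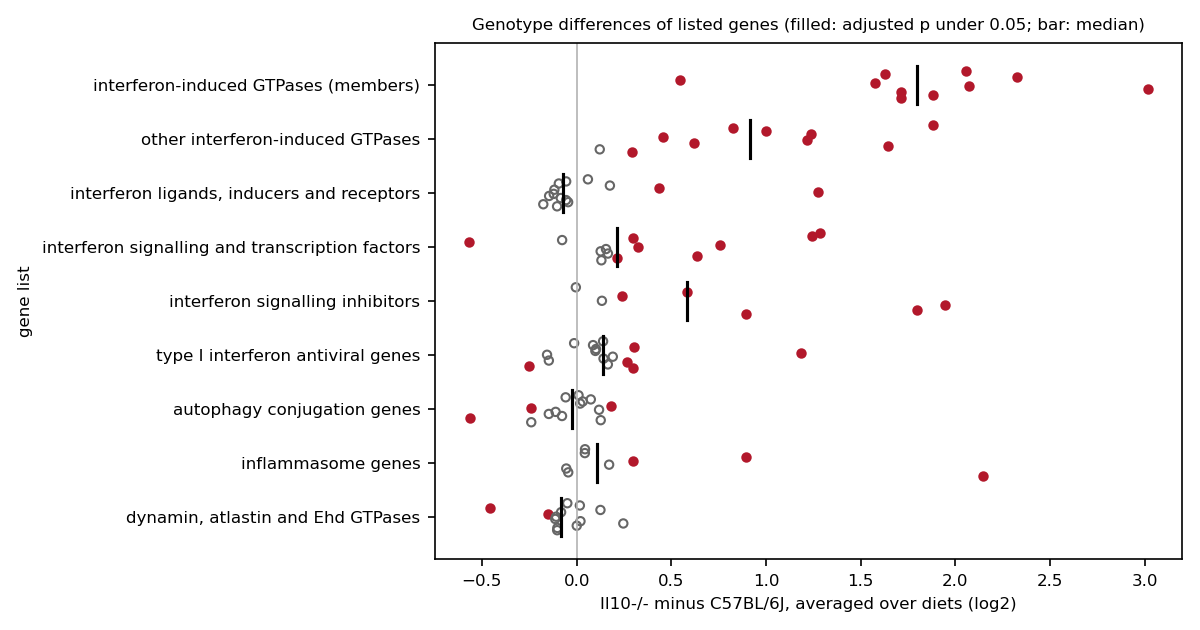
Difference between Il10-/- and C57BL/6J arrays averaged over diets (log2, horizontal axis) for the genes of 9 lists (rows), with filled points for an adjusted p under 0.05 and a bar at each list's median. The 10 GTPases have the highest median (1.80), and autophagy and dynamin genes lie around 0. Members and lists were chosen with earlier results of these data known, so this order is not a test.

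At least 1 marker of each immune cell type was called higher in Il10-/- colon too, where 9.14% of all genes were. Besides the macrophage list, 5 of 9 neutrophil markers, 5 of 8 T cell markers, 5 of 8 cytotoxic cell markers, 1 of 6 B cell markers and 5 of 7 plasma cell markers were called higher and none lower. The mean of the neutrophil list was 0.18 to 0.84 on Il10-/- arrays and -0.60 to -0.20 on C57BL/6J arrays. That of the cytotoxic cell list was 0.03 to 0.30 on Il10-/- arrays and -0.44 to -0.22 on C57BL/6J arrays. Lower calls were made for 4 of 8 endothelium, 5 of 8 smooth muscle and 6 of 6 adipocyte markers, with tied features among them for Acta2, Tagln and Fabp4, and the adipocyte mean was -0.25 to 0.65 on Il10-/- arrays and -0.01 to 1.90 on C57BL/6J arrays. The part of these cells in the GTPase levels was not tested.

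The genes whose profile over the 16 arrays was nearest to the mean profile of the 8 GTPases never tied were found among 16438 genes by the root mean square difference of centred levels. The nearest was H2-Q8, a class I histocompatibility gene of a family with similar sequences (0.104), followed by Cd274, the gene of the ligand PD-L1 (0.165), the cytokine gene Tnf (0.181), Sp110 (0.181) and the immunoproteasome gene Psmb9 (0.185). Gbp11 (0.186), Snx10 (0.204) and Ccdc88b (0.205) completed the 8 nearest. Among the members the distance from that mean, which they help to form, ran from 0.0917 for Gbp6 to 0.588 for Gbp5 where never tied. All 8 nearest genes were called higher, with differences of 1.45 to 1.88. The measure is set mainly by the genotype difference, since the genotypes form separate groups of arrays.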

How the data were processed

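Colon RNA of 8 groups, 2 arrays each, was measured on 2-colour arrays. Each deposited value is a log2 ratio of a feature, normalized by the authors in a way not given in the sources used here. The submitters' processing notes list limma, with no version. That the logs have base 2 is an assumption. The direction, sample over reference, was not stated and was taken from 7 genes of liver and kidney, whose median lay below 0 on 16 of 16 arrays (-3.70 to -2.30). Array medians were near 0. Spot brightness was not used, so dim or saturated spots cannot be picked out, and precision is limited by the number of arrays.

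The 37252 features measured in every group were averaged by symbol, which gave 17995 named genes and further unnamed features. Symbols came from the platform annotation (32042 features with 1 symbol, of which 31906 were matched to RefSeq, 47 with several and not named). The main fit used limma 3.58.1 in R 4.3.3 (8 group means, contrasts, eBayes, 8 residual degrees of freedom, prior 4.07), Benjamini-Hochberg over 25892 tests per comparison, with tied values kept. The script was tested on simulated data. Tables were made in Python 3.11.15 with pandas 2.3.3 and numpy 2.4.6, figures with matplotlib 3.10.9. The named genes are the 10 members, Il10, Ifng and Irf1, up to 4 called genes of the largest difference per pathway list, and the 8 nearest profiles. Members and lists were chosen with earlier results of these data known. Alternatives were tied values as missing, quantile normalization, array weights, complete genes only, single features, a replicate block, the conflicting diet label, a variance trend, the compared groups alone and each array left out. Some items of the lists are not reported here. No 2 arrays held identical values.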

Additional observations from a re-analysis of the deposited data

Results flagged for a closer look

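Each of the 10 genes was examined in both genotypes for an array far from the other 7 of its genotype, 20 sets in all, of which chance flags about 1 in 20. Gbp4 in C57BL/6J AA replicate 2 stood at -0.52, with the next array at -0.81 and the lowest at -1.01. Iigp1 in Il10-/- EPA replicate 2 stood at 0.66, with the next array at 0.06, and 4 of the other 7 arrays were tied for this gene. Both sets span 4 diets, so a diet and an array cannot be told apart here.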

How the results depend on the processing

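All 10 GTPases stayed called higher averaged over diets under the alternatives that could test them, including each array left out in turn, except that Tgtp1 feature 18941 alone was not called (0.17) and that 8 genes were testable, and called, with tied values missing. On CO and OA the count was 8 to 10. On EPA it was 4 to 9 with 1 array left out, 6 with the EPA groups alone and 10 with the conflicting diet label read as EPA. On AA it was 3 to 10 with 1 array left out and 5 with the AA groups alone, where fewer arrays enter the fit. Counts of called members in the diet comparisons and the interaction stayed at 0. The mean of EPA and AA minus the mean of OA and CO in Il10-/- colon ran from -0.103 (without EPA replicate 2) to 0.302 (without EPA replicate 1) for Iigp1 and from -0.307 (without EPA replicate 2) to 0.0325 (without EPA replicate 1) for Irgm2. For Irf1, 1 of its features alone gave a genotype difference of -0.0548. The cause of these changes was not tested, beyond the arrays removed. The number of all genes called on EPA and on AA also varied with the array left out. Of single-gene values, 2429 kept direction and side of the threshold, 140 lost the call and 5 gained one. The calls of Atg5, Atg7, Dnm3, Gsdmd, Etv6 and Irf7 were each lost under 8 or more alternatives. Those of Oasl1 were lost under 4, Map1lc3a under 2, and Dnm1 and Rsad2 under 1 each.

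Whether the pool numbers pair the groups was checked by correlation. Of 28 pairs of groups, 12 had a correlation of same-numbered deviations over 0.1 and 9 one below 0 (-0.364 to 0.398). With signs so mixed, the check cannot decide whether same-numbered pools shared an effect in some of the groups. A fit with pool number as a replicate block left the counts of called GTPases at 10 averaged over diets, 10 on CO, 10 on OA, 9 on EPA, 9 on AA and 0 in the diet comparisons. It ended the calls of Atg7 (adjusted p = 0.0607) and Dnm3 (adjusted p = 0.0534).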
